A study of Rattus norvegicus with 2 samples.

Results

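The 10 genes described here mark tissue macrophages, or encode the complement C1q chains that macrophages make. They are the scavenger receptor genes Mrc1 and Cd163, the C1q chain genes C1qa, C1qb and C1qc, the receptor genes Csf1r and Cd14, and Cd68, Aif1 and Tyrobp. Each was taken from every probe set that the platform annotation assigns to that gene alone, which gave 11 probe sets for 10 of the 14217 genes on the array. The study asked how the histone deacetylase (HDAC) inhibitor OSU-HDAC42 affects gene expression in the esophagus of male Sprague-Dawley rats, an outbred laboratory strain. The rats were 5 to 6 weeks old when bought. One group received 7 doses of OSU-HDAC42 of 50 mg per kg body weight by gavage, 350 mg per kg in total, and the other received vehicle. The esophagus was collected on day 15, which was 24 hours after dosing ended. Each group had 1 array, and the labels state neither how many rats an array held nor which layers of the esophagus were taken.

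Tissue macrophages are resident phagocytes that clear dying cells, microbes and free haemoglobin. Their survival depends on signalling through the receptor Csf1r. They are a main source of C1q, the recognition part of the classical complement pathway, whose A, B and C chains join a collagen-like stalk to globular heads that bind antibody on a target. In rats, Cd68 and Cd163 are the antigens by which tissue macrophages have long been told apart, the first in the lysosome of most macrophages and monocytes and the second on the surface of resident cells.

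In the OSU-HDAC42 sample the scavenger receptor genes were higher than in the vehicle sample, Mrc1 2.00-fold and Cd163 1.69-fold. The C1q chain genes were higher by less, from 1.14-fold for C1qb to 1.39-fold for C1qa and C1qc. The remaining genes, Aif1 aside, were close to even or lower. Csf1r differed by 0.10 on the log2 scale, Tyrobp by -0.09 and Cd68 by 0, and Cd14 was 1.38-fold lower. The gap between C1qb and Csf1r was only 0.09 on the log2 scale, so these values do not set the C1q genes apart as a class. All differences are log2 intensity in the OSU-HDAC42 sample minus log2 intensity in the vehicle sample, after intensities under 16 were raised to 16. With 1 array per group there is no test, no p-value and no standard error between rats.

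A gene was said to reach the expression floor when its brighter array was at or above 49.1, the median probe set intensity averaged over both arrays on the log2 scale. Of the 10 genes 9 did, and Aif1 did not. Among the 9, 6 were higher, 2 were lower and Cd68 was equal, while 46.7% of all 9560 genes above the floor were higher by any amount and 52.8% were lower. At least 1.5-fold higher were 2 of the 9, Mrc1 and Cd163, against 7.58% of all genes above the floor. At least 2-fold higher was 1, Mrc1, against 1.88%. None was at least 1.5-fold or 2-fold lower, where 10.9% and 3.17% of all genes were. The median difference of the 9 was 0.19, beside a median of -0.03 over all genes above the floor. No test of these shares was made.

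**Figure D1:**
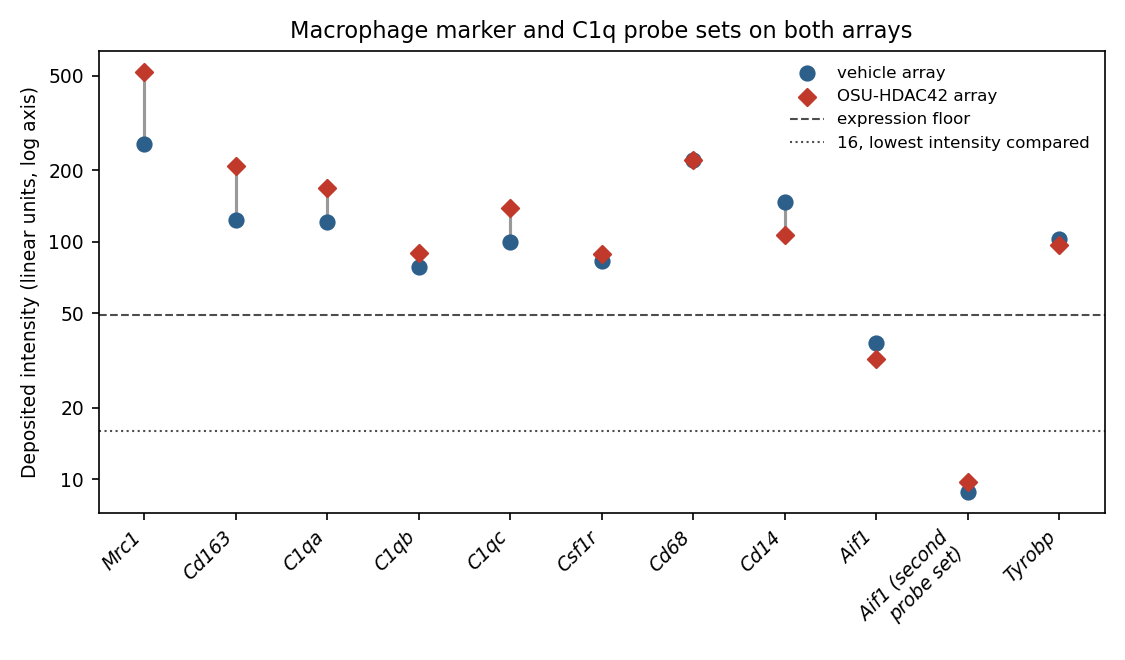
Deposited intensity (linear units on a log axis) of the 11 probe sets of macrophage marker and C1q genes on the vehicle array (circles) and the OSU-HDAC42 array (diamonds), with the expression floor of 49.1 (dashed) and the value of 16 to which lower intensities were raised (dotted). Mrc1 stands at 519 against 259, the symbols of Cd68 coincide at 220, and the second Aif1 probe set lies under 16 on both arrays.

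The median intensity of all non-control probe sets was 48.4 in the OSU-HDAC42 sample and 49.1 in the vehicle sample. The keratin genes Krt13 and Krt4, which define the esophageal lining and were chosen after their values were seen, were very bright, at 14438 and 11052 in the OSU-HDAC42 sample and 14947 and 11517 in the vehicle sample. Of 7 squamous epithelium markers 3 were higher and 4 lower (median -0.01). Of these, 2 were at least 2-fold higher, the envelope precursor Sprr1b at 3688 against 799 (2.21) and the suprabasal keratin Krt10 at 345 against 168 (1.04). The ratio of 3' to 5' probe sets, a sign of RNA integrity, was 6.29 in the OSU-HDAC42 sample and 7.76 in the vehicle sample for beta-actin, 2.09 and 2.32 for GAPDH, and 7.18 and 5.66 for hexokinase. The 3' probe set was thus the brighter for each transcript on both arrays, so these ratios do not show intact RNA. Beta-actin and GAPDH had the higher ratio in the vehicle sample, and hexokinase in the OSU-HDAC42 sample. Skeletal muscle markers were lower in the OSU-HDAC42 sample in 10 of 10 cases (median -1.48), and smooth muscle and fibroblast markers were each higher in 7 of 7 (medians 0.62 and 0.50). The part of these differences in the values below was not tested. In bulk tissue, more or fewer cells of a type, macrophages included, and more or less RNA per cell cannot be told apart.

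The only measure of error within these data is the disagreement between probe sets of the same gene. Over 3643 pairs of probe sets in 2126 genes above the floor, the log2 differences disagreed with an SD of 0.41. It covers the disagreement of probe sets alone and not the spread between rats. Being the SD of a gap between 2 probe sets, it is only a rough yardstick for the difference of a single probe set. Mrc1, Cd163, C1qa, C1qc and Cd14 differed by more than this SD, and C1qb, Csf1r, Cd68 and Tyrobp by less. For 9 of the 10 genes a single probe set was available, so the agreement of probe sets could not be examined for them. Aif1 had 2.

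Mrc1 encodes the mannose receptor CD206, an endocytic lectin of resident macrophages that is also made by some endothelial cells. Its intensity was 519 in the OSU-HDAC42 sample and 259 in the vehicle sample, a log2 difference of 1.00. It was the largest difference among the 10 genes and lay at percentile 98.2 of the differences of all genes above the floor. Among the 1737 genes whose mean log2 intensity lay within 0.5 of its own, whose differences had an SD of 0.47, it also lay at percentile 98.2. Mrc1 stood just past 2-fold (2.004 times), and with quantile normalization (0.998) or removal of the lowess trend (0.996) it fell just short.

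Cd163 encodes the scavenger receptor for haemoglobin bound to haptoglobin, the antigen known in rats as ED2. Its intensity was 207 against 123, a log2 difference of 0.76. That is percentile 95.8 of all genes above the floor and percentile 94.2 of the 1730 genes of similar intensity. Mrc1 and Cd163 were the highest pair of the 9 genes. Their gaps from Cd68, 1.00 and 0.76 on the log2 scale, repeat their own differences, because Cd68 was equal on both arrays.

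The secreted C1q molecule contains all 3 of its chains. C1qa stood at 168 in the OSU-HDAC42 sample against 121 in the vehicle sample. C1qc stood at 139 against 99.6. The log2 differences of both were 0.48. C1qb stood at 89.2 against 78.1, with a log2 difference of 0.19. All 3 chains were higher, with a mean difference of 0.38 and an SD over the 3 genes of 0.16, and they lay at percentiles 86.5 (C1qa), 86.3 (C1qc) and 71.2 (C1qb) among genes of similar intensity. The gap between C1qb and the other chains is smaller than the probe set SD of 0.41, so the chains could not be ordered.

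In the RefSeq annotation of the GRCr8 rat assembly the C1q genes lie next to each other on chromosome 5, in the order C1qb, C1qc, C1qa, with no other protein-coding gene between them. Epha8, next to C1qa, was under 16 on both arrays. Zbtb40, beyond it, stood at 129 in the OSU-HDAC42 sample against 251 in the vehicle sample (-0.96), and Wnt4 at 237 against 223 (0.09).

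**Figure D2:**
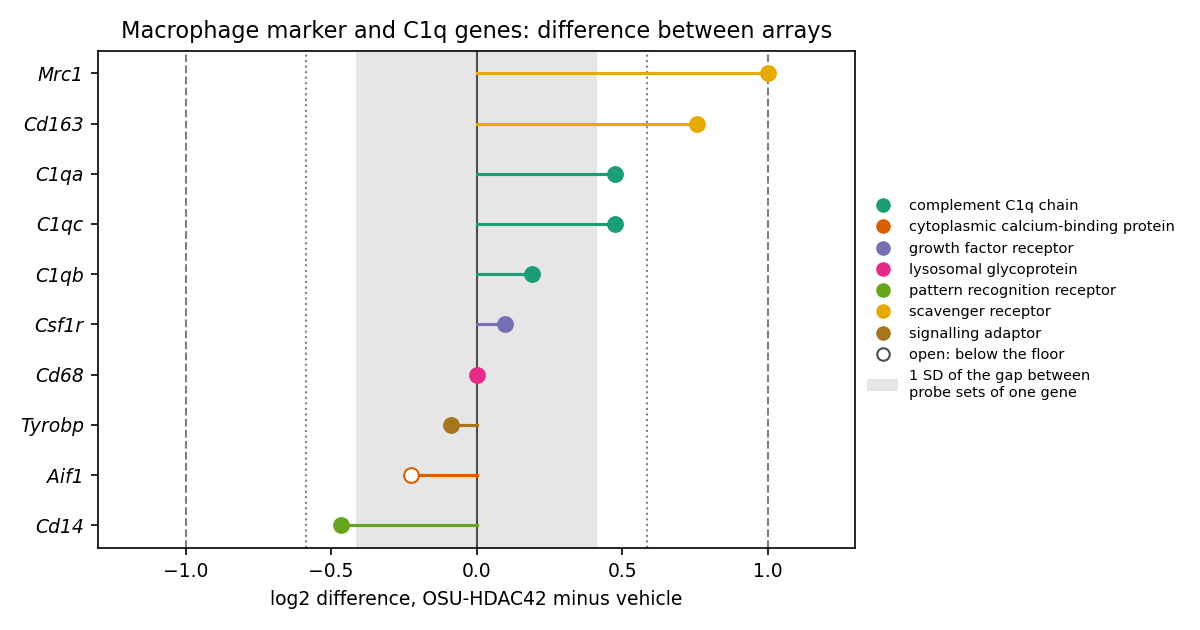
Difference in log2 intensity (OSU-HDAC42 minus vehicle, horizontal axis) of the 10 macrophage marker and C1q genes, each by its brightest probe set and coloured by the role of its product; the open symbol is Aif1, below the expression floor. Grey marks 1 SD (0.41) of the gap between probe sets of the same gene, dotted lines 1.5-fold and dashed lines 2-fold; the scavenger receptor genes Mrc1 and Cd163 are to the right of the dotted line, and Cd14 is farthest left.

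Promoter sequences are shown for the scavenger receptor genes, which had the largest differences, and for C1qa and C1qb, genes of 1 cluster that were both higher. They are from RefSeq on the GRCr8 assembly, and 7 of the 10 genes had an entry. Each runs 5' to 3' on the strand of the gene and ends at the base before the gene, so 250 bases are given, or 227 for Cd163. The positions are chr17:82157475-82157724 (plus strand) for Mrc1, chr4:158770524-158770750 (plus strand) for Cd163, chr5:154419934-154420183 (minus strand) for C1qa and chr5:154407828-154408077 (minus strand) for C1qb. Capitals mark the motif GAGGAA on either strand, a form of the sequence bound by PU.1, the transcription factor that sets the myeloid lineage. Other forms of that sequence were not searched.
Mrc1: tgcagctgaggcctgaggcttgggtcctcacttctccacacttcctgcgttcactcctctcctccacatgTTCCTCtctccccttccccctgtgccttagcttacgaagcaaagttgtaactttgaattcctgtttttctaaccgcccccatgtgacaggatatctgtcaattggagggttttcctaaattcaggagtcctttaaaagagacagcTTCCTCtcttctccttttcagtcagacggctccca
Cd163: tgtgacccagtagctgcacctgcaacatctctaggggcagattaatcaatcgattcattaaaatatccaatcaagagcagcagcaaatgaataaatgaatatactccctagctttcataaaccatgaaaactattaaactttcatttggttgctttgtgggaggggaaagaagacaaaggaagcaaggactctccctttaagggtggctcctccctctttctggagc
C1qa: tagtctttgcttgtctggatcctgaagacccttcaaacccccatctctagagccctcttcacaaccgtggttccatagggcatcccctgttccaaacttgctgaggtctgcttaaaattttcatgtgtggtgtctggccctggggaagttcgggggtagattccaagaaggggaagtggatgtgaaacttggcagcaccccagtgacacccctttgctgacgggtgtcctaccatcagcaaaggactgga
C1qb: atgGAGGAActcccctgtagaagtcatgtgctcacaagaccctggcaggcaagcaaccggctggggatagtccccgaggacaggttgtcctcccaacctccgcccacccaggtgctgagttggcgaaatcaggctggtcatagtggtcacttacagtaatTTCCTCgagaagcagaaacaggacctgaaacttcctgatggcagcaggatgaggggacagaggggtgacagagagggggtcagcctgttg
The Mrc1 promoter held this motif at 2 places, beginning 180 and 35 bases before the start. The C1qb promoter also held it at 2 places, beginning 247 and 90 bases before the start, while no match was found in the windows of Cd163 and C1qa. Over the 250 bases before the start, 5 of the 7 genes with an entry held it (Mrc1, C1qb, Csf1r, Cd68 and Cd14), as did 23.3% of all 33469 promoters in the table. Of that window only 23 bases for Csf1r, and 0 for Cd14, lie outside the gene as RefSeq bounds it. The Cd14 matches are therefore inside the gene, and those of Csf1r are so at least in part. The genes with a match include the highest, Mrc1, and the lowest, Cd14. Both strands were also searched for the AP-1 motif TGANTCA, found in Cd68 alone of the 7 and in 6.34% of all promoters, and for the C/EBP motif TTGCNNAA and the TATA motif TATAAA, found in none of the 7 and in 9.22% and 12.9% of all promoters. No match of one motif overlapped a match of another in these 7 windows. A match describes the letters only.

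Csf1r encodes the receptor for the growth factors Csf1 and Il34. Its intensity was 88.6 in the OSU-HDAC42 sample and 82.7 in the vehicle sample, a log2 difference of 0.10, well inside the probe set SD. Of its ligands, Il34 stood at 47.6 against 70.3 (-0.56), and Csf1 was below the floor on both arrays at 38.4 and 34.04. Of the 7 genes for colony-stimulating factors and their receptors other than Csf1r, all were measured and 2 were above the floor. Both had lower values after OSU-HDAC42, the second being Csf2ra, the alpha chain of the GM-CSF receptor, at 45.1 against 69.7 (-0.63).

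Cd68 encodes a heavily glycosylated lysosomal membrane protein. Its deposited intensity was the same number on both arrays, 220, and it was one of 963 non-control probe sets with exactly equal values. Tyrobp encodes the adaptor DAP12, which carries the signals of receptors such as Trem2 to the kinase Syk. It stood at 96.5 against 103 (-0.09). Neither gene differed by more than the probe set SD. Among partners of Tyrobp, Syk was lower at 91.4 against 158 (-0.79), the related adaptor gene Fcer1g stood at 339 against 367 (-0.11), and Trem2 was below the floor at 17.7 and 19.9. Of 10 genes listed as such partners 5 were measured, and those above the floor were Syk and Fcer1g.

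Cd14 encodes the co-receptor that hands lipopolysaccharide to Tlr4 and its partner Ly96. It was the lowest of the 9 genes, at 106 in the OSU-HDAC42 sample and 147 in the vehicle sample, a log2 difference of -0.46. Among 1655 genes of similar intensity it lay at percentile 22.4. The gap between Mrc1 and Cd14, the extremes of the group, was 1.47 on the log2 scale. Of 15 measured genes of the lipopolysaccharide receptor complex and its targets, 7 reached the floor. Of these 5 were lower and 2 higher, with a median of -0.35. The kinase gene Irak1 stood at 450 against 795 (-0.82), the only one of the 7 to be at least 1.5-fold lower. The adaptor genes Ticam1, Myd88 and Tirap differed by -0.43, -0.40 and -0.35, and Ly96 by -0.25. The 2 higher genes were Traf6 (0.33) and Nfkbia (0.31), both chosen after their values were seen. The second Ticam1 probe set, below the floor, differed by 0.21. Tlr4 was below the floor, under 16 in the OSU-HDAC42 sample and 20.5 in the vehicle sample, and Lbp, which brings lipopolysaccharide to Cd14, was also below it at 28.3 and 20.7.

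Aif1 encodes Iba1, a calcium-binding protein of macrophages and microglia. Its brighter probe set stood at 32.2 in the OSU-HDAC42 sample and 37.6 in the vehicle sample (-0.22), below the floor on both arrays. Its second probe set stood at 9.71 and 8.84, under 16 on both, and gives no difference. No direction can be read for this gene.

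**Figure D3:**
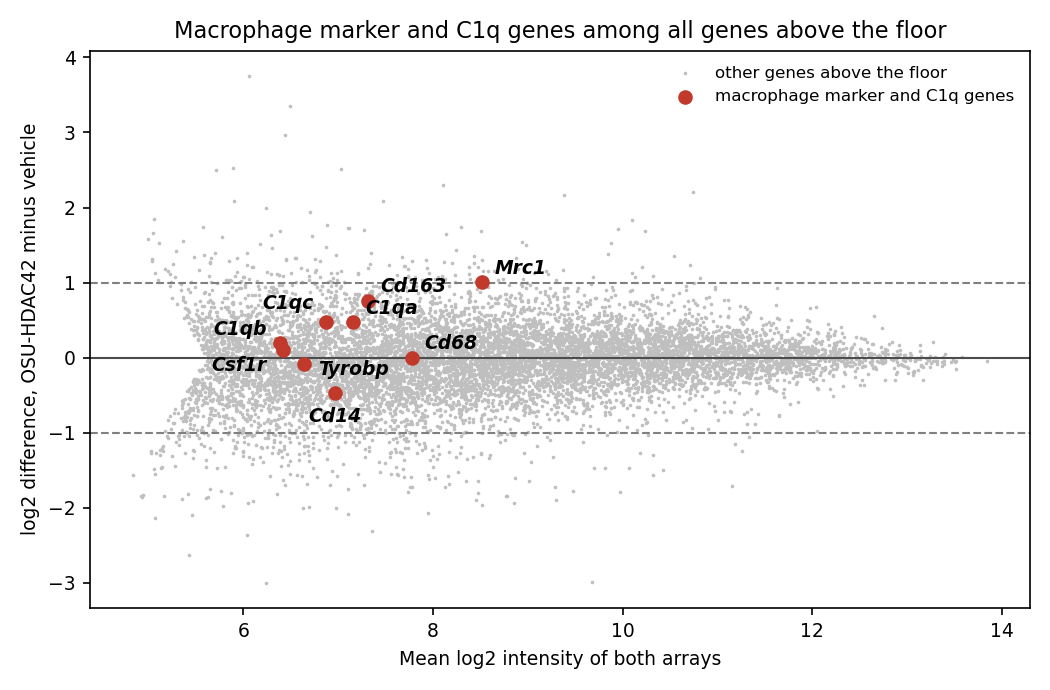
Difference in log2 intensity (OSU-HDAC42 minus vehicle, vertical axis) against the mean log2 intensity of both arrays for the 9560 genes above the expression floor (grey), with the 9 macrophage marker and C1q genes above it in red; dashed lines are 2-fold. Mrc1 lies on the upper 2-fold line at the edge of the grey cloud, whereas Csf1r, Tyrobp and Cd68 lie in its middle.

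Other genes with known expression in tissue macrophages went in both directions. Of 25 such genes 19 were measured and 13 reached the floor, and 7 of these were higher and 6 lower, with a median of 0.12. Among them 2 were at least 2-fold higher. F13a1, the coagulation factor XIII A chain of resident macrophages and platelets, stood at 151 against 46.7 (1.69). Its second probe set was below the floor, at 16.8 in the OSU-HDAC42 sample and under 16 in the vehicle sample. That gives only a bound, of at least 0.07. Ms4a7, a membrane protein of macrophages, stood at 69.6 against 30.9 (1.17). Axl, a receptor for dying cells that fibroblasts make too, differed by 0.36. In the other direction Apoe, the lipid carrier, stood at 555 against 911 (-0.72). The summed intensity of the 19 genes was 6913 in the OSU-HDAC42 sample and 7183 in the vehicle sample, and most of both sums came from Axl (1532 and 1191) and Maf (3002 and 3305), a transcription factor that many other cells make. Other markers of resident macrophages, chosen after their values were seen, varied little. The vessel-side marker Lyve1 differed by -0.20, Adgre1, the F4/80 antigen, by 0.25, the folate receptor gene Folr2 by 0.12 and the pore-forming Mpeg1 by 0.17, whereas Itgam and Cx3cr1 were under 16 on both arrays.

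Genes listed as broadly myeloid or broadly leukocyte, not all of them made by every such cell, had a median of 0.03. Of 24 listed genes 21 were measured and 15 reached the floor, and 8 of these were higher and 7 lower. The summed intensity of the measured genes was 4095 in the OSU-HDAC42 sample and 4179 in the vehicle sample. The largest part of both sums was Irf8 (1142 and 1067), chosen after its values were seen. Coro1a, an actin-binding protein of leukocytes, was 1.53-fold higher and Lyn, a Src-family kinase, differed by 0.36. Cyba, the small subunit of the phagocyte oxidase, stood at 76.8 against 126 (-0.72). Its second probe set, below the floor and under 16 in the vehicle sample, differed by at least 0.34. Lyz2, the lysozyme of macrophages and neutrophils, stood at 440 against 604 (-0.46). Ptprc, the leukocyte antigen CD45, differed by 0.10 and Itgb2 by 0.03, both chosen after their values were seen. The summed intensity of the 10 genes that head this account was 1665 in the OSU-HDAC42 sample and 1269 in the vehicle sample. Most of that gap came from Mrc1 (260) and Cd163 (84.7).

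The rest of the complement system had a median of 0.06. Of 32 listed genes 26 were measured and 13 reached the floor, and 7 of these were higher and 6 lower. The proteases that bind C1q to form the first complement component stood close to even, C1r at 487 against 444 (0.14) and C1s at 251 against 239 (0.07), as did their inhibitor Serping1 (0.10). Cd93, once taken for a C1q receptor and made by endothelium and myeloid cells, differed by 0.26. C5ar1, the receptor for the C5a fragment on myeloid cells, stood at 356 against 219 (0.70). Cd59b, an inhibitor of the membrane attack complex, stood at 7797 against 5286 (0.56). The lectin pathway protease Masp1 stood at 19.6 against 57.7 (-1.56) and the decay-accelerating factor Cd55 at 31.9 against 61.3 (-0.94). For both, every other probe set was below the floor and differed the other way, Masp1 by 0.09 and at least 0.91 and Cd55 by 0.57. The 0.91 is a bound, because that probe set was under 16 in the vehicle sample.

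Genes linked to the functions of Cd163 and Mrc1 were also examined. Of 10 genes for haptoglobin, haem and iron handling, 7 were measured and 5 reached the floor, and 3 of these were higher and 2 lower. Their median was 0.49, but -0.29 when each gene was taken by its dimmest probe set. The dimmest probe sets of Slc40a1 and Lrp1 were below the floor and dropped out of that median. Both were still higher in the OSU-HDAC42 sample, by 0.36 and 0.27. Slc40a1, the iron exporter of macrophages, stood at 210 against 143 (0.55), and a further bright probe set of the gene differed by 0.63. Lrp1, which takes up haem bound to haemopexin, differed by 0.49, and Blvrb, a biliverdin reductase that many cells make, was 3.55-fold higher. Hmox1, which breaks down the haem that Cd163 brings in, went the other way at 943 against 1394 (-0.56). Hp, the haptoglobin gene, was below the floor at 18.1 and 19.9. Pla2r1, a relative of Mrc1 in the mannose receptor family and the only one of that list above the floor, stood at 257 against 158 (0.70).

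**Figure D4:**
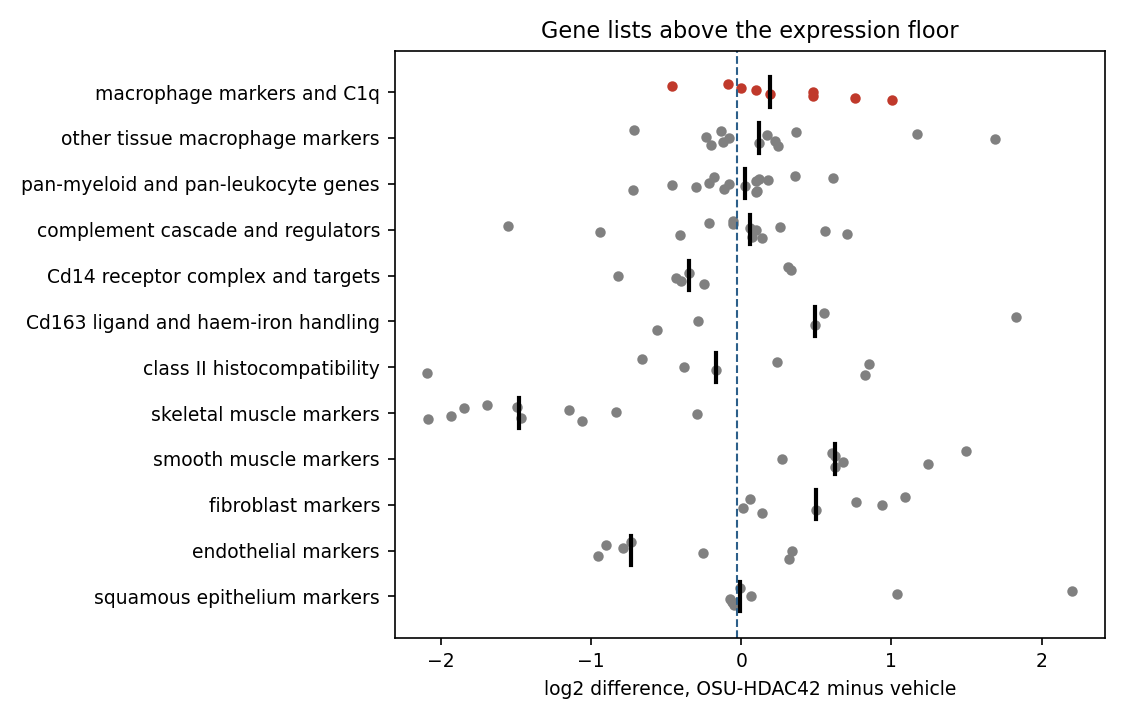
Difference in log2 intensity (OSU-HDAC42 minus vehicle, horizontal axis) of single genes (points) above the expression floor in 12 gene lists, with the list median as a black bar and the median of all genes above the floor (-0.03) as a dashed line. The macrophage marker and C1q genes (red) spread from -0.46 to 1.00, the pan-leukocyte genes centre on 0.03, and the skeletal muscle markers centre on -1.48.

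Class II histocompatibility genes, which macrophages and dendritic cells use to present antigen, went in both directions. Of 8 measured genes 7 reached the floor, and by their brightest probe sets 3 of these were higher, RT1-Ba among them, and 4 lower, with a median of -0.17. RT1-DMa stood at 195 against 108 (0.85), the invariant chain gene Cd74 at 918 against 1451 (-0.66) and RT1-Bb at 21.3 against 91.0 (-2.09). The second RT1-Bb probe set was under 16 on both arrays, and the mean of both probe sets gave -1.05. RT1-Ba differed by 0.82 on its brightest probe set and by -2.39 on the other above the floor, so it has no settled direction.

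Markers of other leukocytes were mostly at or near background. Of 13 T and NK cell markers all were measured and 8 were under 16 on both arrays, and the one above the floor was Cd8a at 153 against 84.5, with its other probe sets below it. Of 6 measured B cell markers 4 were under 16 on both arrays and 1, Blnk, was above the floor (-0.59). Of 4 measured dendritic cell markers none reached the floor, and 1 was under 16 on both arrays. The summed intensity was 329 in the OSU-HDAC42 sample and 251 in the vehicle sample for T and NK cell markers, 163 and 225 for B cell markers and 88.7 and 102 for dendritic cell markers.

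Markers of neutrophils, monocytes and mast cells also held genes at background. Of 7 measured neutrophil markers 4 were under 16 on both arrays, while S100a8, a calcium-binding protein also made by stressed squamous epithelium, stood at 54.0 against 145 (-1.43) and the chemokine receptor gene Cxcr2 at 82.8 against 125 (-0.59). The summed intensity of the 7 was 192 against 337. Of 6 measured monocyte markers 4 reached the floor, and 2 of these were higher and 2 lower. Plac8 differed by -0.60 and Ly6c by -0.55. Vcan, which fibroblasts make as well, differed by 1.04, with its other probe sets below the floor. Of 9 measured mast cell markers 3 were under 16 on both arrays, and those above the floor were higher, the protease genes Cpa3 at 131 against 47.5 (1.46) and Cma1 at 55.6 against 29.7 (0.90). The summed intensity of the mast cell markers was 315 against 168. The part of these cells in the values of Mrc1, Cd163 and the C1q chains was not tested. Endothelial markers, relevant because some endothelial cells make Mrc1, had a median of -0.73, with 5 of 7 lower. The higher ones were Pecam1 (0.32) and Kdr (0.34), both chosen after their values were seen. The summed intensity of the endothelial markers was 2594 in the OSU-HDAC42 sample and 2559 in the vehicle sample. With the floor raised to the 75th percentile of intensities, which keeps only the brighter of these genes, the endothelial median was 0.32.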

How the data were processed

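Esophageal RNA of rats given OSU-HDAC42 or vehicle was measured on Affymetrix 230 2.0 rat arrays, 1 per group. Each deposited value is the linear intensity of a probe set, as judged from the range of values. The tools listed per the submitters' processing notes are GCOS and RMA, without role or version, and how the authors scaled the arrays is not given in the sources used here. Of 31042 non-control probe sets, 20826 carry 1 gene symbol, 436 several and 9780 none, and only the first were used. Lower intensities were set to 16 before log2 transformation, with no further normalization, and each gene was represented by its brightest probe set (Python 3.11.15, pandas 2.3.3, numpy 2.4.6; lowess from statsmodels 0.14.6). The procedure was run on simulated data as a check of the calculation only. That run does not show how well differences of the size reported here would be recovered. The number of arrays limits the precision.

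The 10 genes and 24 other lists (269 memberships, 222 measured, 2 through another symbol) were chosen with earlier results of these data known. Symbols without such a probe set were not used here. Named genes were the 10, the genes of each list that reached the floor and differed most (4 at most), and direct partners of the 10. Others are said to be chosen after their values were seen, and Maf and Zbtb40, Epha8 and Wnt4, neighbours of the C1q genes, are also outside this rule. Because 2 arrays give 1 difference per gene, genes were not ranked by likeness of pattern. Alternatives changed the raised value, the scaling, the probe set, the floor and the fold threshold.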

Additional observations from a re-analysis of the deposited data

How the results depend on the processing

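Each of the 10 genes moved by less than the probe set SD of 0.41 under all 8 alternatives that give it a value. Mrc1 ran from 0.996 to 1.02, Cd163 from 0.76 to 0.79, C1qa from 0.48 to 0.50 and C1qc from 0.48 to 0.51. C1qb ran from 0.19 to 0.24, Aif1 from -0.25 to 0 and Cd14 from -0.46 to -0.43. For the 9 genes above the floor, only the changes of scaling could move the value. Their intensities all exceed 64 and each has a single probe set, so raising values or choosing another probe set could not. The count of genes at least 2-fold higher was 0 with quantile normalization, with the lowess trend removed and without Mrc1, and 2 with a 1.5-fold threshold, against 1. At least 1.5-fold higher was 1 gene without Mrc1 and 1 with the floor at the 75th percentile, against 2. That floor leaves only Mrc1, so the median was 1.00, with 1 gene higher and 0 lower, by construction. Raising values to 64 and leaving out Mrc1 were chosen after seeing the data. With no floor the list medians were -0.16 for the CSF genes, 0 for the Cd163 ligand and haem-iron, neutrophil, T and NK cell and B cell lists and 0.61 for mast cells. The T and NK cell median was 0.35 with the mean of all probe sets and the Cd163 ligand list median, 0.49 as reported, turned to -0.29 with the dimmest. The dimmest probe sets of Slc40a1 and Lrp1 fall below the floor, and neither gene changed direction. The endothelial median reversed to 0.32 with the higher floor. By the dimmest probe set Cd55 reversed to 0.57, Cxcl12 to 0.40, Cyba to at least 0.34, Egfl7 to 0.12 and Masp1 to 0.087. By the mean of all probe sets RT1-Ba reversed to -0.23. Other named genes moved past the probe set SD in 22 cases and stayed within it in 504. The largest shift of the median of all genes under another scaling was 0.021, with centring. Apart from the higher floor and the Cd163 ligand list, the cause was not tested. No paired analysis was possible because only 1 array stood for each group.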

Other observations

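Genes that mark the activation state of macrophages were mostly dim. Of 13 measured genes 5 reached the floor, and 1 of these was higher and 4 lower, with a median of -0.26. Arg1, the arginase of alternatively activated macrophages and of some epithelia, stood at 73.5 in the OSU-HDAC42 sample against 136 in the vehicle sample (-0.89), and Irf5, a transcription factor of the inflammatory state, at 141 against 197 (-0.48). The interleukin-4 receptor gene Il4r and its transcription factor gene Stat6 differed by -0.22 and -0.26. Retnla and Il10, chosen after their values were seen, were under 16 on both arrays, and so were the inflammatory cytokine genes Tnf and Il6.

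Of 10 measured genes for chemokines and their receptors that draw myeloid cells, 3 were above the floor. All 3 were lower in the OSU-HDAC42 sample, but only Cxcl12 by more than the probe set SD of 0.41. Cxcl12, a stromal chemokine, stood at 479 against 852 (-0.83). A further bright probe set of Cxcl12 differed by -1.04, and one below the floor by 0.40. Ccl6 stood at 1997 against 2242 (-0.17), and Cx3cl1 at 46.6 against 49.9 (-0.10). Ccl2, which draws monocytes, was below the floor and went the other way, at 33.3 in the OSU-HDAC42 sample and under 16 in the vehicle sample. Its receptor gene Ccr2 was under 16 on both arrays. Both were chosen after their values were seen.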
